A study of Mus musculus with 8 samples.

Results

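The mitochondrial ribosomal proteins were taken as all gene symbols of the count files that start with Mrpl or Mrps followed directly by a digit. The rule found 77 of 24421 symbols, 48 named for the large subunit (Mrpl) and 29 named for the small subunit (Mrps). All 77 passed the filter on low counts and were tested. The rule used names alone and no measured value.

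The libraries came from macrophages that were differentiated in culture from mouse bone marrow (BMDM). All 8 were stimulated for 24 h with interleukin 4 (IL-4), a cytokine that drives alternative activation. The 4 libraries labelled CKO (replicates 2, 6, 7 and 8) have the genotype OPA1f/f; Lyz2-Cre, and the 4 labelled FLOX (replicates 3, 4, 6 and 7) have OPA1f/f without the driver. Both groups thus carry the floxed Opa1 gene, whose product is a GTPase that fuses inner membranes of mitochondria and shapes their cristae. Lyz2-Cre places the recombinase in the lysozyme 2 gene of myeloid cells, and no library holds the driver without the floxed gene, so the driver and the deletion cannot be told apart. No unstimulated library was compared. The labels do not say whether each library came from its own animal, so p-values measure the spread between these libraries, which may be partly technical.

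The mitochondrial ribosome makes the few proteins that mitochondrial DNA encodes, all of them subunits of the respiratory chain and of ATP synthase. Its RNAs are transcribed inside the organelle, while all of its proteins are encoded in the nucleus, made in the cytosol and imported. The small subunit binds the mRNA and decodes it, and the large subunit forms the peptide bond and passes the new chain through an exit tunnel. Some members have a counterpart in bacterial ribosomes and others are specific to mitochondria. The files hold no gene with a symbol starting mt-, so the transcripts that this ribosome translates were not analysed here.

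The promoters of nuclear genes for mitochondrial proteins are known for binding sites of ETS family factors such as GABPA, of NRF1 and of YY1. RefSeq promoter windows on GRCm38.p6, 250 bases before to 50 bases after the start, were matched to 68 of the 77 members. Motifs were searched on both strands as CCGGAAG for ETS, CGCATGCG for NRF1 and AAGATGGCG for YY1. The ETS and YY1 letters can overlap by AAG. The 4 upstream stretches of 250 bases below were chosen after the search, and capitals mark motif matches. Mrps6 and Mrps22 are shown as the members with the largest fall and the second largest rise, and Mrpl22 and Mrpl32 as examples of windows with ETS and NRF1 matches.

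Mrps6: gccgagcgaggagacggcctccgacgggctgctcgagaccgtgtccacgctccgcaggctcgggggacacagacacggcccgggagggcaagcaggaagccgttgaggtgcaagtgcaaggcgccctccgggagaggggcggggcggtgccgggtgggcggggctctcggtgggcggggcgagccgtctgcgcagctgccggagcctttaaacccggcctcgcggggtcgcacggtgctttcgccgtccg
Mrps22: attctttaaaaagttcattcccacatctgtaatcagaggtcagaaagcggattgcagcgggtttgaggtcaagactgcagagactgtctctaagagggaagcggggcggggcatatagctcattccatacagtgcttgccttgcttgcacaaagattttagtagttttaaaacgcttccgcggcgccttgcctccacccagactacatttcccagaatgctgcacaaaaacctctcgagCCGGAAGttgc
Mrpl22: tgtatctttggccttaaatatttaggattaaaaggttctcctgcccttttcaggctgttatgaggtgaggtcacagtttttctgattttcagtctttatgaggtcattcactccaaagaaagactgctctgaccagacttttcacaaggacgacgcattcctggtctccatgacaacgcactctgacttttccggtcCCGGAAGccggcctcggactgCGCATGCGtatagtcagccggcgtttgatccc
Mrpl32: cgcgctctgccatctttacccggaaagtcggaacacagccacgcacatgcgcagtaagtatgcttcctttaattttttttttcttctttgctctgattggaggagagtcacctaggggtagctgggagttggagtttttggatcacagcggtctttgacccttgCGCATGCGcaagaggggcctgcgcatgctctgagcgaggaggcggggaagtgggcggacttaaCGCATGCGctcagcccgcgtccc

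The Mrps6 stretch lies at chr16:92058086-92058335 on the plus strand and holds none of the 3 motifs. The Mrps22 stretch lies at chr9:98601680-98601929 on the minus strand and holds 1 ETS match, 11 bases before the start. The Mrpl22 stretch lies at chr11:58171414-58171663 on the plus strand, with 1 ETS match and 1 NRF1 match. The Mrpl32 stretch lies at chr13:14613038-14613287 on the minus strand, with 2 NRF1 matches. Over the 68 windows, ETS letters occurred in 23 (33.8%), against 19.8% of 8862 windows of tested genes and 9.12% of all 27025 genes in the table. NRF1 letters occurred in 7 (10.3%), against 4.25% of tested and 1.91% of all genes. YY1 letters occurred in 8 (11.8%), against 3.52% of tested and 1.49% of all genes. At least 1 of the 3 motifs was found in 33 of 68 member windows (48.5%) and in 25.7% of tested genes. By the call between genotypes described further on, 4 of 9 windows of members higher in CKO held a motif, as did 1 of 7 of those lower and 28 of 52 of those not called. These are matches of letters and were not tested for binding.

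The genotype labels were checked first. Opa1 was counted at 94.6, 98.6, 104.6 and 102.6 CPM (counts in proportion to library size after TMM scaling between libraries) in CKO replicates 2, 6, 7 and 8. It was counted at 103.6, 114.4, 108.4 and 130.4 CPM in FLOX replicates 3, 4, 6 and 7. The log2 fold change of CKO over FLOX was -0.19 ± 0.07 (SE) and missed the threshold (edgeR quasi-likelihood test, adjusted p = 0.0544). The ranges overlapped, and a count over the whole gene includes exons outside the deleted part, which the labels do not name. Lyz2, which the driver allele disrupts, was at 1809 to 2387 CPM in CKO and 6906 to 8294 CPM in FLOX, lower in every CKO library.

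Depth was 11764855 (CKO replicate 2) to 18939948 (FLOX replicate 6) read pairs assigned to genes. The least counted member, Mrpl52, still had at least 73 counts in every library. Of the 10 macrophage markers all were tested, with a summed level of 7195 to 7759 CPM in CKO and 8001 to 8363 CPM in FLOX. They did not move together: Cx3cr1 and Fcgr1 were higher in CKO, Cd68, Csf1r and Mertk were lower, and 5 were not called. Their log2 fold changes ran from -0.78 to 1.11. Of 5 neutrophil markers tested, Ltf, Ngp and S100a9 were higher in CKO, each under 5 CPM in every library, and Csf3r was lower, at 114 to 140 CPM against 215 to 312 CPM. The markers' sum of 121 to 150 CPM in CKO and 218 to 314 CPM in FLOX is thus mostly Csf3r. All 16 cell cycle genes listed were higher in CKO, with sums of 3775 to 4489 CPM against 1912 to 2359 CPM. By the same test, 23.8% of all tested genes were higher in CKO and 21.6% were lower. The extraction text speaks of islets, but 9 of 10 islet markers were at 0 counts in all libraries. Lymphocyte markers summed to at most 0.395 CPM and fibroblast markers to at most 3.02 CPM. The part of these cell type and cell cycle differences in the members' values was not tested. In bulk samples, fewer cells of a type and less RNA per cell cannot be told apart.

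As a group, the mitochondrial ribosomal proteins had nearly the same summed level in both genotypes in TMM-scaled CPM. The 48 large subunit genes summed to 1546, 1523, 1546 and 1482 CPM in CKO replicates 2, 6, 7 and 8, and to 1629, 1360, 1568 and 1299.8 CPM in FLOX replicates 3, 4, 6 and 7. The group means were 1524 ± 30.5 and 1464 ± 159 CPM (SD, n = 4 each), so CKO stood at 104% of FLOX. The 29 small subunit genes summed to 838, 843, 852 and 807 CPM in CKO, and to 938, 772, 893 and 744 CPM in FLOX, in the same order of replicates. Their means were 835 ± 19.9 and 837 ± 93.4 CPM (SD, n = 4 each), or 99.8% of FLOX. On raw library totals, without TMM scaling, CKO stood at 112% of FLOX for the large subunit and 107% for the small. In TMM-scaled CPM the 4 CKO libraries lay between the FLOX libraries in both subunits: FLOX replicates 3 and 6 were above all of them and FLOX replicates 4 and 7 were below. The TMM factors were 1.01 to 1.04 in CKO and 0.953 to 0.978 in FLOX, so this order depends on the scaling.

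The ratio of the summed large to the summed small subunit differed between the genotypes by more than its spread. It was 1.85, 1.81, 1.81 and 1.84 in CKO and 1.74, 1.76, 1.76 and 1.75 in FLOX, with no overlap. Without Mrps6 and Mrps21, which were left out after their values were seen, it was 1.94 to 2.00 in CKO and 1.94 to 1.96 in FLOX, and the ranges overlapped. Without all called members it was 2.07 to 2.13 in CKO and 2.05 to 2.08 in FLOX, again with overlap. The genes left out were chosen by their difference between the genotypes, so the choice favoured a smaller gap, which is no separate result. Names and structure differ for 3 members, since Mrps18a and Mrps30 sit in the large subunit and Mrps36 is known as a subunit of the 2-oxoglutarate dehydrogenase complex. With the first 2 counted as large and Mrps36 left out, the ratio was 2.10 to 2.18 in CKO and 2.04 to 2.07 in FLOX.

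**Figure D1:**
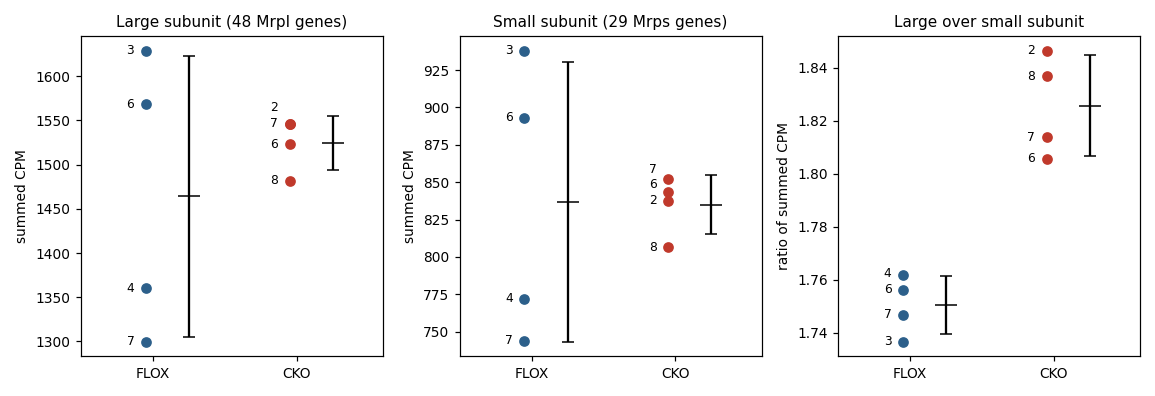
Summed TMM-scaled CPM of the large and the small subunit genes and their ratio in each library, with replicate numbers beside the points and bars for the group mean and SD of 4 libraries. The axes do not start at 0. FLOX replicates 3 and 6 lie above and 4 and 7 below all CKO libraries in both sums, while the ratios of the groups do not overlap.

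Between the genotypes, 18 of the 77 members (23.4%) were called at an adjusted p under 0.05 by edgeR, against 45.4% of all 11519 tested genes. Of these, 11 were higher in CKO, where the share over all tested genes was 23.8%, and 7 were lower, where it was 21.6%. The other 59 did not pass the test. The CPM ranges of the groups lay apart with CKO above for 9 members and CKO below for 6. Over all tested genes those shares were 22.7% and 20%. Changes were small. The median size of the log2 fold change was 0.14 over the members and 0.23 over all tested genes, with a median SE of 0.09 in both. Only 1 member, Mrps6, differed by more than 1.5-fold, against 16.3% of tested genes, and 0 differed by more than 2-fold, against 5.87%. The signed median was 0.07 over the members and -0.02 over all tested genes. No test of the members against other genes was made.

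**Figure D2:**
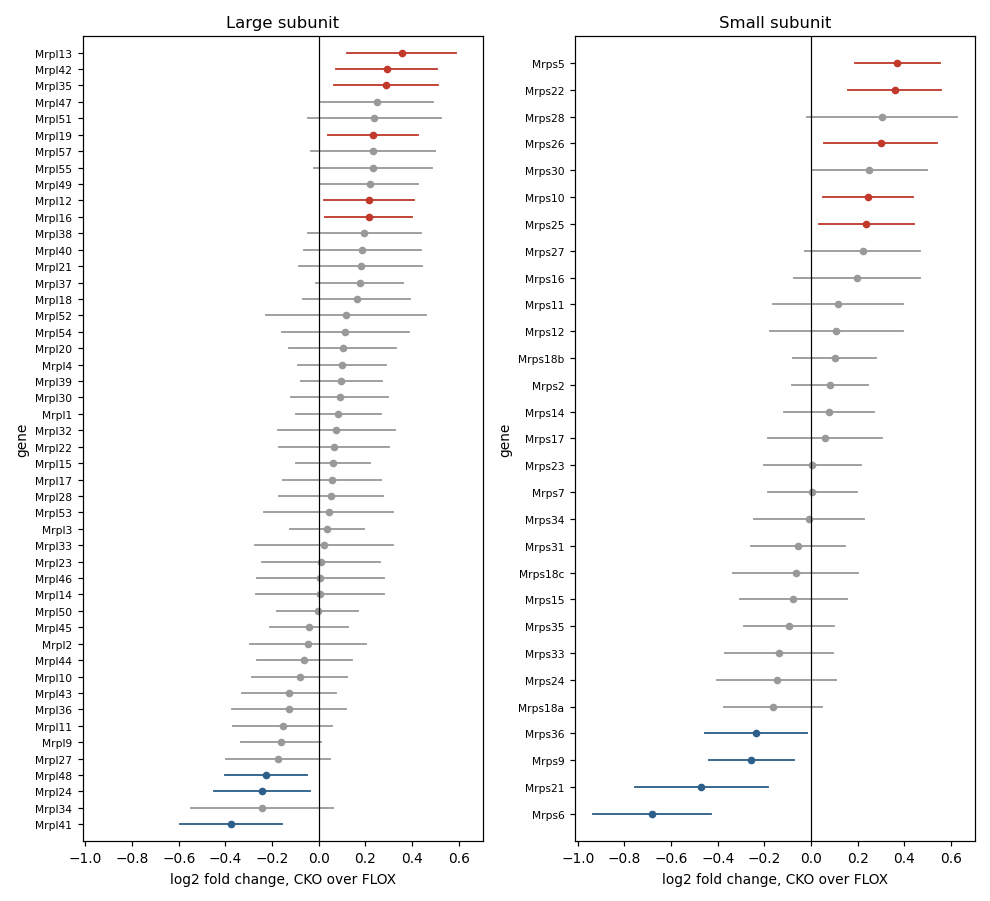
Log2 fold change of CKO over FLOX with its 95% interval for each of the 48 large and 29 small subunit genes. Red marks the 11 members called higher and blue the 7 called lower, and the 59 in grey did not pass the test. Mrps6 and Mrps21 have the largest falls.

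In the small subunit, 5 of 29 members rose, 4 fell and 20 did not pass the test, with a median log2 fold change of 0.06. Mrps6, whose product has a bacterial counterpart at the edge of the platform of the small subunit, fell the most. It was at 25.2, 22.8, 19.8 and 22.5 CPM in CKO replicates 2, 6, 7 and 8, and at 41.6, 33.1, 38.6 and 31.1 CPM in FLOX replicates 3, 4, 6 and 7. All CKO libraries were below all FLOX libraries, at 62.4% of the FLOX level in the fit (log2 fold change -0.68 ± 0.10 SE, adjusted p by edgeR 0.000185). The gene (ENSMUSG00000039680, plus strand of chromosome 16, from 92058270 to 92112227 on GRCm38) shares 159 exon bases on the same strand with Slc5a3, the sodium-dependent myo-inositol transporter. Slc5a3 itself was at 63.9, 52.2, 38.0 and 53.5 CPM in CKO and at 108, 143, 125 and 167 CPM in FLOX, a fall of larger size (log2 fold change -1.39 ± 0.16 SE, adjusted p by edgeR 6.8e-05). Reads over the shared exon cannot be told apart by gene. The counting set aside 1.56% to 1.69% of pairs per library as ambiguous between genes. Whether pairs over the shared exon were among these is not known, so the value of Mrps6 is uncertain, and the part of Slc5a3 in it was not tested. Within CKO both genes were highest in replicate 2 and lowest in replicate 7. Within FLOX, Slc5a3 was highest in replicate 7, where Mrps6 was lowest.

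Mrps21, another small subunit protein with a bacterial counterpart, fell as well. It was at 40.5, 35.1, 38.2 and 31.7 CPM in CKO and at 59.5, 41.5, 55.6 and 44.3 CPM in FLOX. The ranges lay apart by a narrow margin, between CKO replicate 2 and FLOX replicate 4 (log2 fold change -0.47 ± 0.12 SE, adjusted p by edgeR 0.00564). It shares no exon bases with another annotated gene. Mrps9, with a bacterial counterpart in the head of the subunit, was at 27.2, 27.8, 28.7 and 28.9 CPM in CKO and at 36.5, 34.7, 33.7 and 29.5 CPM in FLOX. The CKO libraries lay close together and just under FLOX replicate 7 (-0.26 ± 0.07 SE on the log2 scale, adjusted p = 0.0145 by edgeR). The call of Mrps9 was lost when CKO replicate 6 was left out and with no other single library. Mrps36 was at 25.8 to 27.1 CPM in CKO and 27.9 to 36.9 CPM in FLOX, with the high end set by FLOX replicate 3 (log2 fold change -0.24 ± 0.09 SE, adjusted p by edgeR 0.0473). Without 1 of 6 libraries (any CKO, or FLOX replicates 3 or 6) that call was lost.

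Mrps5 and Mrps22 were the small subunit members with the largest rises. Mrps5, which has a bacterial counterpart near the mRNA entry, was at 31.2, 33.8, 32.9 and 28.6 CPM in CKO and at 23.6, 25.7, 25.4 and 23.2 CPM in FLOX. CKO lay above FLOX in all libraries, at 129% of the FLOX level (log2 fold change 0.37 ± 0.07 SE, adjusted p by edgeR 0.00152). Mrps22, a mitochondria-specific protein of the small subunit, was at 20.9, 22.4, 24.5 and 21.3 CPM in CKO. In FLOX it was at 18.6, 15.9, 17.7 and 17.2 CPM, again without overlap (log2 fold change 0.36 ± 0.08 SE, adjusted p by edgeR 0.00322). Both were called in all 20 alternative fits. Mutations of MRPS22 in people are known to cause a disorder of the respiratory chain.

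Mrps26, Mrps10 and Mrps25 also rose, with log2 fold changes of 0.30, 0.24 and 0.24. Mrps26 and Mrps25 have no bacterial counterpart and Mrps10 has one. Mrps26 was at 25.1, 28.2, 28.7 and 25.5 CPM in CKO and at 23.2, 18.5, 25.4 and 20.2 CPM in FLOX, where replicate 6 reached into the CKO range. Each of the 3 calls was lost without FLOX replicate 4 and without FLOX replicate 7, the controls in which these genes were lowest, Mrps26 also without CKO replicate 6 or 7 and Mrps10 without CKO replicate 7. Mrps25 shares 4590 exon bases with Nr2c2 on the opposite strand, and since the strand setting of the counting is not given in the sources used here, it is uncertain. Grouped by origin, 2 of 16 small subunit proteins with a bacterial counterpart rose and 3 fell, and 3 of 10 mitochondria-specific ones rose and 0 fell. With 23.8% of all tested genes higher and 21.6% lower, shares of so few genes are coarse, and the difference between the lists was not tested.

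Mrps18a, Mrps18b and Mrps18c descend from 1 bacterial protein, and none of the 3 passed the test. Their log2 fold changes were -0.16 ± 0.09, 0.10 ± 0.07 and -0.07 ± 0.11 (SE). Mrps30 also missed the threshold, at 0.25 ± 0.10 SE on the log2 scale (adjusted p = 0.0604 by edgeR). It was at 31.8, 31.8, 28.4 and 31.3 CPM in CKO and at 30.1, 22.5, 28.3 and 22.4 CPM in FLOX, so the FLOX libraries fell into a higher and a lower pair. Mrps28 was similar, with 13.4 to 16.4 CPM in CKO and 9.91 to 14.4 CPM in FLOX, and was not called.

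In the large subunit, 6 of 48 members rose, 3 fell and 39 did not pass the test, with a median log2 fold change of 0.07. Mrpl13, which has a bacterial counterpart, rose the most. It was at 35.5, 40.1, 39.1 and 39.9 CPM in CKO and at 34.5, 27.3, 33.3 and 25.6 CPM in FLOX. CKO replicate 2 and FLOX replicate 3 were close, and no library of one group reached into the other (log2 fold change 0.35 ± 0.10 SE, adjusted p by edgeR 0.00953). Mrpl13 shares 330 exon bases with Mtbp on the opposite strand. Mtbp was at 18.9 to 25.1 CPM in CKO and 8.45 to 12.0 CPM in FLOX (log2 fold change 1.14, edgeR adjusted p = 9.8e-06), and its part in the Mrpl13 value was not tested.

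Mrpl42, a mitochondria-specific protein, was at 45.6, 42.5, 46.0 and 43.1 CPM in CKO and at 40.2, 34.3, 39.7 and 30.2 CPM in FLOX. It was higher in every CKO library (log2 fold change 0.29 ± 0.09 SE, adjusted p by edgeR 0.0174). Mrpl35 and Mrpl19, both with bacterial counterparts, had log2 fold changes of 0.29 and 0.23. Mrpl16, also with a bacterial counterpart, had 0.21. Mrpl12, the stalk protein that recruits translation factors and is also known to bind the mitochondrial RNA polymerase, was at 56.8, 50.7, 55.8 and 53.4 CPM in CKO. In FLOX it was at 52.9, 41.6, 48.4 and 43.5 CPM, with replicate 3 inside the CKO range (log2 fold change 0.22 ± 0.08 SE, adjusted p by edgeR 0.0421). The calls of Mrpl35, Mrpl19, Mrpl16 and Mrpl12 were lost without FLOX replicate 4 and without FLOX replicate 7. The call of Mrpl19 was also lost without CKO replicate 7, that of Mrpl16 without CKO replicate 6 or 7, and that of Mrpl12 without CKO replicate 2 or 7 or FLOX replicate 6.

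Mrpl41 fell the most among large subunit members. This mitochondria-specific protein, also known to interact with BCL2, was at 18.8, 16.1, 18.5 and 15.9 CPM in CKO and at 25.3, 21.9, 21.8 and 20.9 CPM in FLOX. The groups did not overlap (log2 fold change -0.38 ± 0.09 SE, adjusted p by edgeR 0.00454). Mrpl24, at the rim of the exit tunnel, and Mrpl48, in the central protuberance, had log2 fold changes of -0.24 and -0.23. Both calls were lost without FLOX replicate 3 or 6 and without CKO replicate 6, 7 or 8. By place in the subunit, 1 of 5 proteins of the stalk and its base rose and 0 fell, 0 of 6 at the exit tunnel rose and 1 fell, and 0 of 6 in the central protuberance rose and 1 fell. The last list includes Ict1, a large subunit protein outside the naming rule that did not pass the test. By origin, 5 of 30 large subunit proteins with a bacterial counterpart rose and 1 fell, and 1 of 19 without one, Ict1 again included, rose and 2 fell. Over all tested genes 23.8% rose and 21.6% fell, and differences between these small lists were not tested.

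A further 16 members outside the calls crossed the threshold when 1 library was left out, and the 5 among them that were named for this reason are given here. Mrpl34 (log2 fold change -0.24, edgeR adjusted p = 0.127) and Mrpl9 (-0.16, adjusted p = 0.0776) passed without FLOX replicate 7. Mrpl51 (0.24, edgeR adjusted p = 0.112), Mrpl55 (0.23, adjusted p = 0.0845) and Mrps27 (0.22, adjusted p = 0.092) passed without FLOX replicate 3. Among the 16 are also members named for other reasons. Mrps30 passed without CKO replicate 7 or FLOX replicate 3 or 6, and Mrps18a without FLOX replicate 7. Mrpl47 passed without CKO replicate 2 or 7 or FLOX replicate 4. Exon bases are shared with another annotated gene by 32 of the 77 members, in 27 cases on the opposite strand. Among the called ones, Mrpl19 shares 1962 bases with Gcfc2 (log2 fold change 0.38), Mrpl48 shares 708 with Rab6a (0.20) and Mrpl24 shares 594 with Rrnad1 (-0.12), so these 3 are uncertain too.

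**Figure D3:**
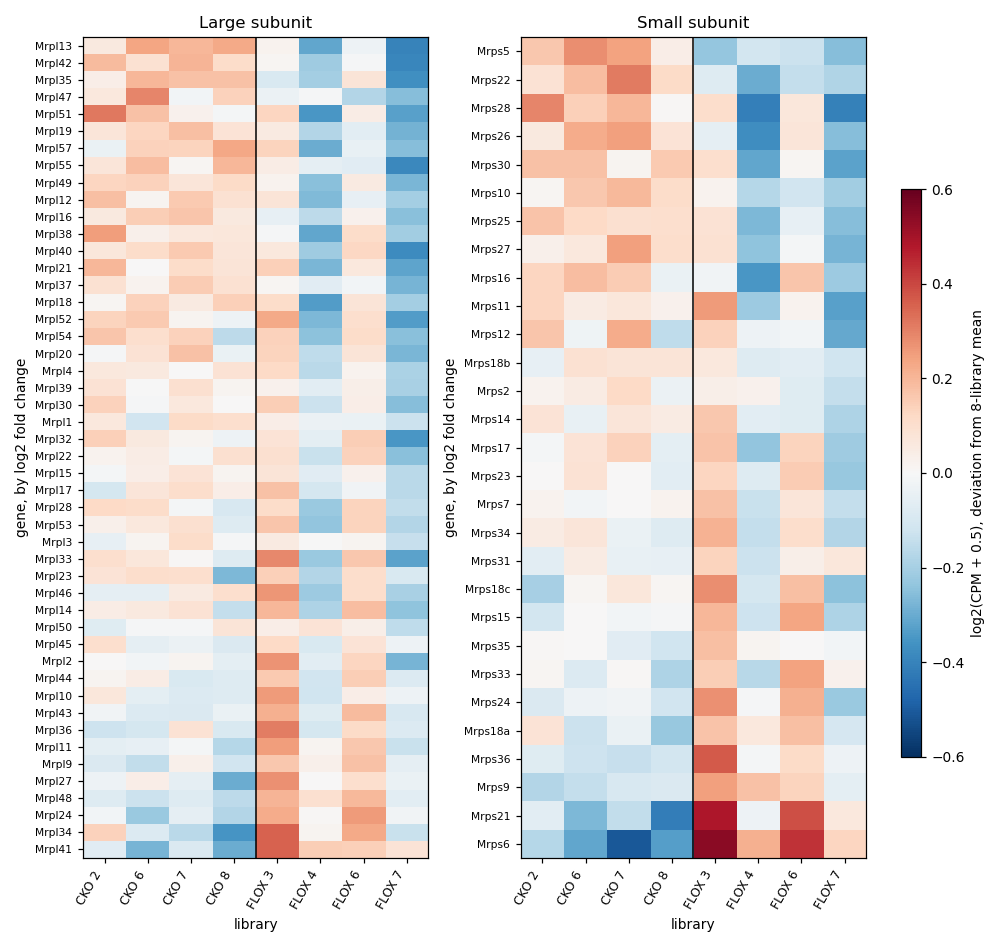
Deviation of log2(CPM + 0.5) from the mean of the 8 libraries for every member, with large subunit genes on the left and small subunit genes on the right, ordered by log2 fold change. The columns of FLOX replicates 4 and 7 are mostly blue and those of FLOX replicates 3 and 6 mostly red, while the CKO columns vary less.

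The FLOX libraries held the members in a shared order. Within FLOX, replicate 3 was the highest library for 57 of the 77 members and replicate 6 for 17, with 3 for replicate 4 and 0 for replicate 7. Over all tested genes the same shares were 32.5%, 21.1%, 20.5% and 25.9%. The lowest FLOX library was replicate 7 for 55 members and replicate 4 for 22. The median deviation of the members from their 8-library mean on the log2 scale was 0.13, -0.13, 0.08 and -0.20 in FLOX replicates 3, 4, 6 and 7. In CKO replicates 2, 6, 7 and 8 it was 0.04, 0.05, 0.06 and -0.01. The median coefficient of variation was 5.43% in CKO and 12.4% in FLOX over the members, and 6.86% and 10.1% over all tested genes. It was larger in FLOX for 70 of the 77 members, and for 68.5% of tested genes. For 27 members the whole CKO range lay inside the FLOX range.

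Across all tested genes, the deviations of the FLOX libraries also varied with transcript length. The members are short, with a median of 1363 exon bases against 3298 over all tested genes, and their median GC content was 50.1% against 49.8%. Across all tested genes, Spearman's rho between a library's deviation and length was -0.44, 0.22, -0.33 and 0.34 in FLOX replicates 3, 4, 6 and 7, and -0.14, 0.05, 0.01 and 0.20 in CKO replicates 2, 6, 7 and 8. These are correlations across genes within a library, and genes are not independent replicates. After an offset fitted to GC content and length over all tested genes, the members' median deviations in FLOX replicates 3, 4, 6 and 7 were 0.01, -0.07, 0.00 and -0.12. The order was partly kept: after the offset, replicates 3 and 6 were each the highest FLOX library for 31 members. The lowest was replicate 7 for 38 members and replicate 4 for 29. Cytosolic ribosomal proteins summed to 53421, 43123, 48610 and 40267 CPM in FLOX replicates 3, 4, 6 and 7, the same order of high and low. What set these libraries apart was not tested.

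The calls followed the FLOX libraries used. With only FLOX replicates 4 and 7 as controls, 35 members rose (24 large, 11 small) and 3 fell, against 26.2% and 25.8% of 11707 tested genes. The median log2 fold change of the members was then 0.23. With only FLOX replicates 3 and 6, 3 members rose and 20 fell (11 large, 9 small), against 26.1% and 24.2% of 11731 tested genes, and the median was -0.06. With the GC and length offset and all 8 libraries, 28 rose and 7 fell, against 27.5% of 11519 tested genes in each direction. Of the 18 calls, 14 were kept in that fit. Those of Mrpl19 (edgeR adjusted p = 0.103), Mrpl35 (0.0522), Mrps25 (0.272) and Mrps36 (0.0646) were lost. The sign of the members' median thus changed with the controls used. These pairs were chosen with earlier results known, and the members stood high in FLOX replicates 3 and 6 and low in 4 and 7. The direction of the shift between the control sets was therefore set by the choice and is no separate result. There were 6 members called with the same sign in the fits with all 8 libraries and with either pair of controls: Mrpl13, Mrps5 and Mrps22 rose, and Mrpl41, Mrps6 and Mrps21 fell. The share of all tested genes called in all of these fits was not computed, so this number cannot be set against other genes. The 2 control sets share the 4 CKO libraries.

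**Figure D4:**
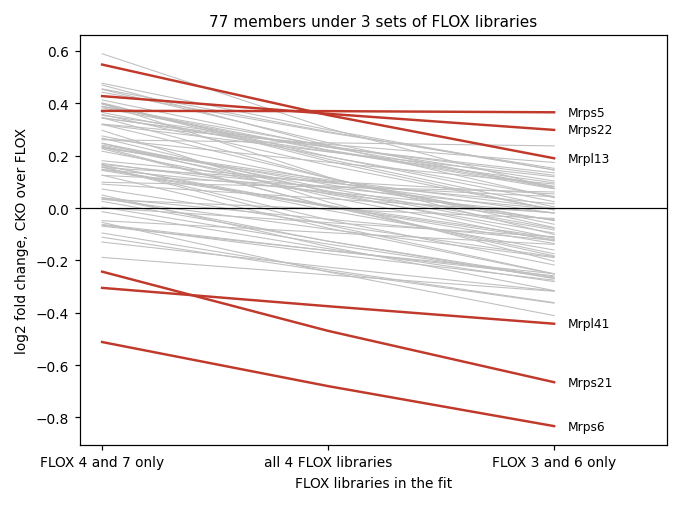
Log2 fold change of CKO over FLOX for each of the 77 members with FLOX replicates 4 and 7 only, with all 4 FLOX libraries, and with FLOX replicates 3 and 6 only. All 77 lines are lower on the right than on the left, and the 6 members called with the same sign in all 3 fits are in red. The pairs were chosen with the members' levels known, so the downward direction was set by that choice.

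Per length of annotated exons, levels spanned a wide range within the subunits, although the proteins enter 1 particle. Mrps21 was the highest, at 73.9 CPM per kb in CKO and 102 in FLOX. Mrpl33 (71.5 in CKO and 70.2 in FLOX), Mrps15 (61.0 and 64.3) and Mrpl42 (65.2 and 53.2) followed. The SDs of Mrpl33, Mrps15 and Mrpl42 overlapped in FLOX. The lowest were Mrpl17 at 3.70 in CKO and 3.56 in FLOX, Mrpl47 at 4.22 and 3.56, and Mrps35 at 3.98 and 4.25 CPM per kb. Mrps26, which rose, was the second lowest of the small subunit at 6.29 and 5.10 CPM per kb. Low ranks went with long annotations. Mrpl17 has 7605 merged exon bases, Mrps35 4162 and Mrpl47 3364, against a median of 1363 over the members. Before division by length, Mrpl17 averaged 28.1 CPM (CKO) and 27.1 CPM (FLOX), near the members' median of 28.7. Mrpl47 and Mrps35 lay below that median. Ranks 1 to 4 and 75 to 77 held the same genes with the longest transcript in place of merged exons. That swap left Mrpl17 at 7300 bases and Mrps35 and Mrpl47 unchanged, so it was no test of the part of length.

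**Figure D5:**
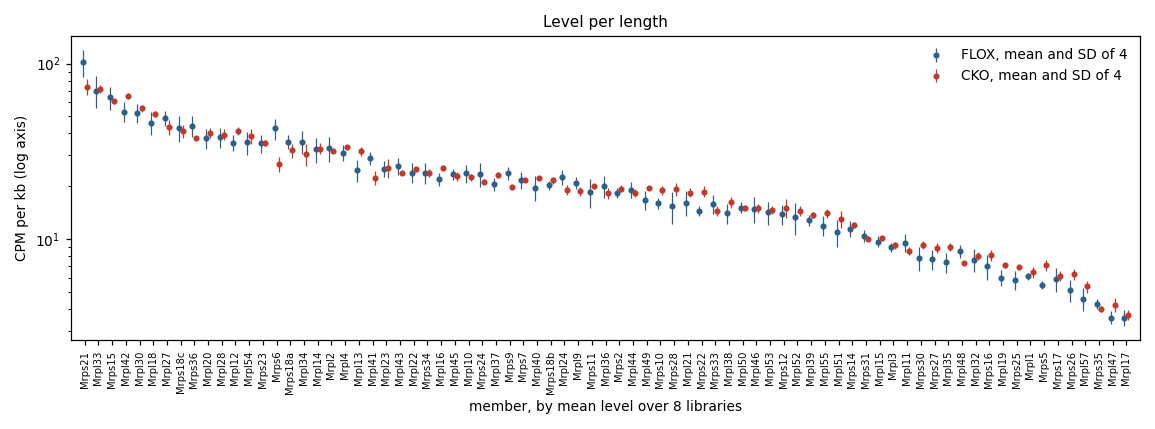
Level per length of every member in both genotypes, as CPM per kb of merged exons on a log axis, with the mean and SD of 4 libraries. Members run from Mrps21 at the left to Mrpl17 at the right, and the genotypes differ little beside the range between genes.

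The mitoribosomal proteins that carry other symbols, and so are outside the rule, gave 1 rise and 0 falls among 6 tested. Of all tested genes 23.8% rose and 21.6% fell. Ptcd3, a pentatricopeptide protein of the small subunit, rose. It was at 31.0, 35.7, 35.1 and 39.6 CPM in CKO and at 26.7, 27.5, 23.9 and 26.3 CPM in FLOX, without overlap (log2 fold change 0.44 ± 0.08 SE, adjusted p by edgeR 0.000852). The small subunit proteins Dap3, Chchd1 and Aurkaip1 had log2 fold changes of 0.10, 0.20 and -0.01. The large subunit proteins Gadd45gip1 and Ict1, whose present symbol is Mrpl58 and which rescues stalled ribosomes, had 0.17 and -0.06. None of these 5 passed the test.

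Of 27 factors that assemble the mitochondrial ribosome or modify its RNA, 5 rose and 1 fell, against 23.8% and 21.6% of all tested genes. Their median log2 fold change was -0.04. Tfb1m, which dimethylates the small ribosomal RNA, was at 7.04, 6.66, 8.14 and 6.54 CPM in CKO and at 5.26, 4.46, 5.13 and 6.03 CPM in FLOX. It was higher in every CKO library (log2 fold change 0.44 ± 0.12 SE, adjusted p by edgeR 0.0108). Rnmtl1, a methyltransferase of the large ribosomal RNA, had a log2 fold change of 0.45 ± 0.16 SE (edgeR adjusted p = 0.039). The fall was that of Nsun4, an RNA methyltransferase that acts in joining of the subunits, from 11.7 ± 0.281 to 9.97 ± 0.657 CPM (SD, n = 4 each; edgeR adjusted p = 0.0417).

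Of 20 factors of mitochondrial translation, 4 rose and 1 fell, against 23.8% and 21.6% of all tested genes. Their median log2 fold change was -0.02. Mtrf1l, a release factor, and Qrsl1, a subunit of the amidotransferase that makes glutaminyl-tRNA, had log2 fold changes of 0.38 and 0.35. Oxa1l, which binds the ribosome at the inner membrane and inserts new chains, was at 58.7, 50.2, 50.3 and 53.1 CPM in CKO. In FLOX it was at 66.4, 62.8, 61.5 and 61.0 CPM, above all CKO libraries (log2 fold change -0.25 ± 0.07 SE, adjusted p by edgeR 0.00877).

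The proteins of the cytosolic ribosome, of which 82 were tested, gave 0 rises and 11 falls (13.4%), against 23.8% and 21.6% of all tested genes. Their log2 fold changes were negative in 77 of 82, with a median of -0.15. The CPM ranges of the groups overlapped for 81 of the 82. Over all tested genes they lay apart with CKO above for 22.7% and with CKO below for 20%. The sums of the cytosolic ribosomal proteins ran from 39534 to 44567 CPM in CKO and from 40267 to 53421 CPM in FLOX. Rpl37a (log2 fold change -0.40, edgeR adjusted p = 0.00885) and Rpl10 (-0.33, adjusted p = 0.00613) fell the most. The ranges of Rpl37a overlapped and those of Rpl10 did not. Whether the 2 kinds of ribosome differed in their change was not tested.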

How the data were processed

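Total RNA of 8 BMDM cultures was sequenced as read pairs. Per the submitters' processing notes, the authors aligned reads with HISAT2 2.0.5 to mm10 and counted them with HTSeq, and the HTSeq version, gene annotation and strand setting were not given in the sources used here. The deposited values are raw counts of read pairs per gene symbol, in 1 file per library. HTSeq's unassigned classes were left out of library sizes, and 66.3% to 71.7% of pairs were assigned. Multiply aligned pairs were not assigned.

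In R 4.3.3, edgeR 4.0.16 was run over all genes (filterByExpr with minimum count 10, TMM scaling, quasi-likelihood F test, Benjamini-Hochberg over 11519 genes, called under 0.05). The biological coefficient of variation was 8.77%. CPM uses TMM-scaled library sizes. The SE of a log2 fold change was taken as its size over the root of F, with 95% intervals on 6 residual degrees of freedom. Lengths, positions and GC content come from GENCODE M21 on GRCm38, the assembly of mm10. Pairs of libraries within a group had a chi-square of 2.45 to 27.9 per degree of freedom, more than counting noise gives. DESeq2 1.42.0, limma 3.58.1 (voom), other scalings and filters, left-out libraries, a replicate block and a GC and length offset were the alternatives.

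The members, the lists and the libraries left out in pairs were chosen with earlier results of these data known. Named were Opa1, up to 6 called rises and falls per subunit, the 2 highest and 2 lowest members per subunit by level per length, up to 6 members whose call depended on 1 library, Mrps36, Mrps30, Mrps18a, Mrps18b, Mrps18c, Mrpl12 and Ict1 (Mrpl58), the leading called genes of each related list and the members under other symbols. Mrpl22, Mrpl32, Mrpl52, Mrps28, Slc5a3 and Mtbp stand outside this rule and were chosen after their values were seen.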

Additional observations from a re-analysis of the deposited data

Results flagged for a closer look

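In 72 groups of 4 libraries examined (32 members, Opa1, the subunit sums and their ratio, by genotype), 5 had 1 library far from the other 3 by Dixon's criterion for 4 samples, and chance flags about 1 in 20. CKO replicate 2 was low for Mrpl35 (31.0 CPM, nearest 34.1), Mrps15 (54.1 CPM, nearest 57.8) and Mrps18b (21.8 CPM, nearest 23.8). CKO replicate 7 was low for Mrps30 (28.4 CPM, nearest 31.3). FLOX replicate 3 was high for Mrps35 (19.4 CPM, nearest 17.3). Of these, only Mrpl35 was called between the genotypes.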

How the results depend on the processing

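The 32 named members were recomputed in 20 alternative fits each, which gave 640 values: 518 kept direction and side of the threshold, 80 lost the call, 29 gained one and 13 changed sign. All 13 belong to 4 members that were not called. Only Mrpl33 with FLOX replicates 3 and 6 as controls passed the test with the other sign, at -0.20 (edgeR adjusted p = 0.0382). With those controls Mrpl17 was at -0.0443. With FLOX replicates 4 and 7 only, Mrps15 was at 0.13 and Mrps18c at 0.16. With the GC and length offset they were at 0.0260 and 0.00710. With 1 library left out, Mrpl33 ran from -0.0719 to 0.13 and was negative without FLOX replicate 4 (-0.0449) or 7, and Mrps18c ran from -0.15 to 0.0203 and was positive without CKO replicate 2 (0.0130) or FLOX replicate 3. DESeq2 called the same 18 members. The number of members higher in CKO was 11 and ran from 4 (without FLOX replicate 7) to 18 (without FLOX replicate 3) when 1 library was left out. Over all tested genes the number higher was 2739 and ran from 2491 to 2885. The number of members lower was 7 and ran from 3 (without CKO replicate 6) to 12 (without FLOX replicate 7). Over all tested genes the number lower was 2492 and ran from 1782 to 2491. With only FLOX replicates 4 and 7 the members' counts were 35 higher and 3 lower (all tested genes 26.2% and 25.8%), and the large subunit median was 0.23. With only FLOX replicates 3 and 6 they were 3 higher and 20 lower (all tested genes 26.1% and 24.2%), and the small subunit median was -0.11. The GC and length offset gave 28 members higher, against 27.5% of all tested genes.

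The labels share replicate numbers 6 and 7 between the groups and do not say whether these are pairs. Deviations of same-numbered libraries from their own group's mean correlated across genes at 0.14 (number 6) and -0.07 (number 7). These values cannot decide whether the libraries are paired, since the FLOX deviations also carry the order of the FLOX libraries described above. The main fit did not take the numbers 6 and 7 as pairs. A block on these numbers compares the genotypes only within numbers 6 and 7, since no other number occurs in both groups. With the replicate block the members gave 5 higher and 2 lower, while over all tested genes it gave 1985 higher (2739 without the block) and 1518 lower (2492 without it). Mrps18c was then at 0.0705. The block with the GC and length offset gave 17 higher and 3 lower members, with Mrps15 at 0.0169 and Mrps18c at 0.0763. Over all tested genes that fit gave 2594 higher and 2476 lower. The block fits thus rest on fewer libraries than the main fit, and the part of this in the shifts was not tested.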
